A study of Bos taurus with 6 samples.

Results

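The miR-26 family in milk extracellular vesicles (EVs) was followed through its 2 members in the count table, bta-miR-26a and bta-miR-26b, out of 276 known miRNAs and 779 listed miRNAs in all. Members were taken by name, as every bovine miR-26a, miR-26b or miR-26c with or without an arm suffix, and both were counted in all 6 cows. No listed miRNA had the name bta-miR-26c, so it was not analysed here. The libraries came from milk EVs of 6 Holstein cows in mid lactation, at a mean of 101 days in milk, 574 kg body weight and 32 kg milk per day. The control group was 3 cows on a total mixed ration (TMR). The replacement group was 3 cows given feed in which some of the alfalfa hay was exchanged for whole cotton seed and soybean hull. All cows were housed in climate chambers under the same constant conditions, and each cow gave 1 library.

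The miR-26 miRNAs are conserved among vertebrates. A mature miRNA guides an Argonaute protein to messenger RNAs, mainly by its seed at bases 2 to 8, and the pairing represses them, so members with a common seed share most of their predicted targets. A known target of miR-26a is EZH2, a histone methyltransferase. The hairpins of the family lie in genes of the CTDSP group, which encode small phosphatases of the RNA polymerase II tail, and the miRNAs act on those same phosphatases. EVs are vesicles that cells release, and milk EVs carry miRNAs through the milk.

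The mature sequences are printed because the count of each member, and the ratio between them, rests on the bases at which they differ. Capitals mark the seed, and the letters are written as DNA, as the count table gives them.
bta-miR-26a: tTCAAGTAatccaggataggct
bta-miR-26b: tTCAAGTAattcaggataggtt

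Both members are 22 nt long and have the same seed. They differ at 2 positions, written from bta-miR-26a to bta-miR-26b as C11T and C21T and counted from 1 at the 5′ end, so 20 of 22 bases are identical. A read that ends before base 21 still holds base 11 and can be told apart there. None of the other 777 listed miRNAs, known or predicted, had this seed at bases 2 to 8 or anywhere else in its sequence. The nearest of them was bta-miR-499, at an edit distance of 7 from bta-miR-26b, which leaves the members as the only close relatives of each other in the table. How the authors assigned reads that match several miRNAs is not stated, and a share of reads exchanged between the members was not tested.

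In the RefSeq annotation of the assembly ARS-UCD2.0, bta-miR-26a has 2 genes, MIR26A-1 inside the span of CTDSPL and MIR26A-2 inside that of CTDSP2, and bta-miR-26b has 1 gene, MIR26B, inside that of CTDSP1. The symbol MIR26C has the same span as MIR26A-1 in this annotation. No coordinates are given, since the study used an earlier version of the assembly. The counts of bta-miR-26a are a sum over both of its genes and cannot be split between them.

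The libraries held 61156 to 176919 counts of known miRNAs, in which 3 counts set a limit of 0.0017% to 0.00491% for an undetected miRNA, and all intervals and limits cover counting error only. Control cow 3, the cow with the fewest counts of known miRNAs, stood apart in the share of its red blood cell miRNAs. The 6 matched of 8 listed ones held 20.1% of its known miRNA counts, against 6.48% to 10.9% in the other cows, and bta-miR-16b of this list had no count in at least 1 cow. A share does not show whether these miRNAs were more abundant in that cow or the other known miRNAs less so. The largest miRNA of the red blood cell list was bta-miR-486, with 6.83% ± 2.77 (SD, n = 6 cows). Leukocyte miRNAs, 8 matched of 8, held 1.84% to 3.07% per cow. Most of that was bta-miR-150, with 1.51% ± 0.447 (SD, n = 6 cows), while bta-miR-142-3p had at most 1 count in a cow. Mammary epithelial miRNAs, 10 matched of 11, held 0.411% to 1.10%. Most of that was bta-miR-148a, a miRNA abundant in milk, with 0.639% ± 0.192 (SD, n = 6 cows), and 7 of the 10 had no count in at least 1 cow. Among the defining miRNAs of epithelium, bta-miR-200a reached 92 counts in its highest cow, bta-miR-205 48 and bta-miR-200c 28, while bta-miR-200b had at most 1.

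bta-miR-26a was the known miRNA with the highest mean share. It received 12570, 32841 and 9258 counts in control cows 1, 2 and 3 and 32852, 17085 and 13141 counts in replacement cows 1, 2 and 3. In relation to the summed counts of known miRNAs, its share was 17.8%, 20.4% and 15.1% for control cows 1 to 3 and 18.6%, 17.7% and 18.9% for replacement cows 1 to 3. The control cows held both the lowest and the highest share, and all replacement cows lay between them. The mean was 18.1% ± 1.73 (SD, n = 6 cows). The widest 95% Wilson interval of a cow was that of replacement cow 3, from 18.6% to 19.2%, so the spread between cows exceeded counting error. It ranked first in 5 cows and second in replacement cow 1, behind bta-miR-191. The mean of bta-miR-191 was 14.1% ± 4.65 (SD, n = 6), and its share ran from 8.78% to 20.9%, so the gap between these neighbours was within the spread of bta-miR-191. The lowest share of bta-miR-26a was that of control cow 3, and without this cow its mean was 18.7%. With the 6 red blood cell miRNAs left out of the total, bta-miR-26a held 18.9% in control cow 3 and 19.6% to 21.9% in the others, so that cow remained the lowest but by a smaller gap.

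bta-miR-26b was a minor member. Its counts were 129, 795 and 253 in control cows 1, 2 and 3 and 626, 269 and 356 in replacement cows 1, 2 and 3. Its share of known miRNA counts was 0.183%, 0.493% and 0.414% for control cows 1 to 3 and 0.354%, 0.279% and 0.511% for replacement cows 1 to 3, with a mean of 0.372% ± 0.127 (SD, n = 6) and rank 41 of that mean. Control cow 1 was the lowest and replacement cow 3 the highest, and the diets overlapped. The rank of bta-miR-26b within a cow ran from 31 in control cow 2 to 56 in control cow 1. Its neighbours in the order of mean share, bta-miR-122, a miRNA of liver cells, with 0.373% ± 0.229 (SD, n = 6) and bta-let-7g, a let-7 miRNA, with 0.372% ± 0.145 (SD, n = 6), could not be separated from it. Without control cow 3 the mean of bta-miR-26b was 0.364%. Together the family held 18.5% ± 1.77 (SD, n = 6), from 15.6% in control cow 3 to 20.9% in control cow 2.

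**Figure D1:**
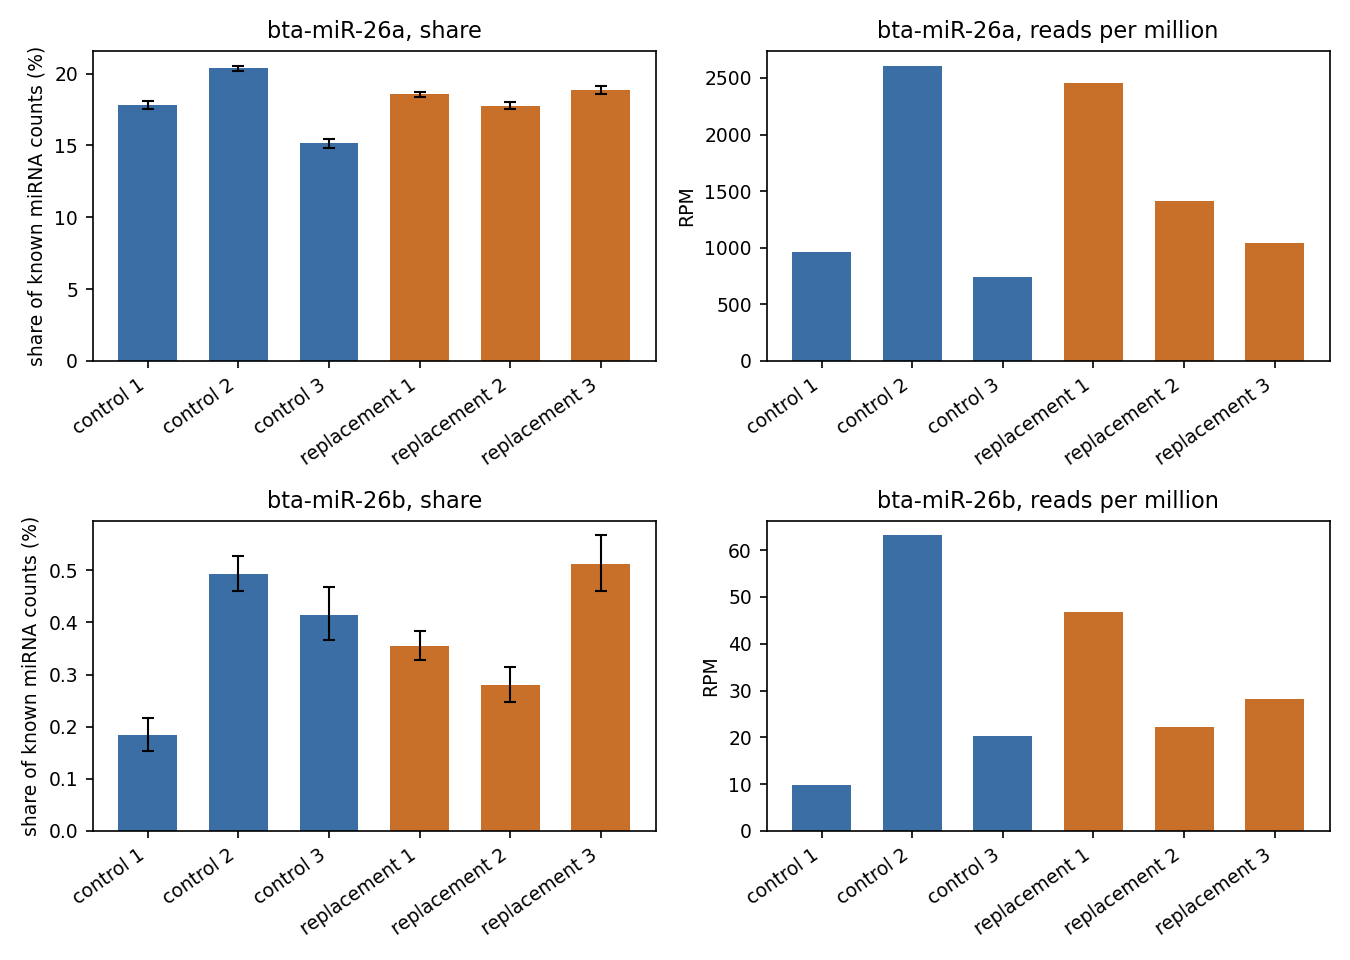
Level of bta-miR-26a (top) and bta-miR-26b (bottom) in each cow, as the share of known miRNA counts in % (left, with 95% Wilson intervals) and as RPM (right), with control cows in blue and replacement cows in orange. Shares of bta-miR-26a stay between 15.1% and 20.4%, while its RPM runs from 745 to 2609.6.

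The total to which the counts were related changed the picture of bta-miR-26a. In RPM, the unit in which the authors scaled the counts to the reads of each library, it stood at 959.9, 2609.6 and 745 in control cows 1 to 3 and at 2457, 1408 and 1042 in replacement cows 1 to 3. The highest RPM was 3.50-fold the lowest, whereas the highest share was 1.35-fold the lowest. The high RPM values were those of control cow 2 and replacement cow 1, the cows with the most counts of known miRNAs, 161240 and 176919, against 61156 to 96254 in the other 4 cows. bta-miR-26b behaved alike, with 9.85, 63.2 and 20.4 RPM for control cows 1 to 3 and 46.8, 22.2 and 28.2 RPM for replacement cows 1 to 3, and with control cow 2 and replacement cow 1 again highest. Known miRNAs took between 15.8% and 42.0% of the counts of all listed miRNAs, and with that total bta-miR-26a held 3.83%, 5.90% and 2.39% for control cows 1 to 3 and 7.80%, 6.24% and 4.85% for replacement cows 1 to 3, where the diets also overlapped. In bulk EV material, fewer vesicles with a miRNA and less of it per vesicle cannot be told apart.

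Among 49 known miRNAs with at least 100 counts in every cow, the coefficient of variation (CV, SD over mean) of the share of bta-miR-26a was 9.55%, second lowest after bta-miR-342 with 8.47% and against a median of 29.3%. As the largest miRNA it is a sizeable part of its own total, and when it was related to the counts of the other known miRNAs instead, its CV was 11.5% and again second lowest. In RPM its CV was 52.2%, at place 28 of the 49 from the lowest. For bta-miR-486, the largest of the red blood cell list, the CV was 40.5% in share but 13.6% in RPM. The share of bta-miR-26b varied more, with a CV of 34.1% at place 32. Counting error alone gives a CV of 5.93% for bta-miR-26b and 0.799% for bta-miR-26a at these counts. These CVs describe 6 cows and were not tested.

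**Figure D2:**
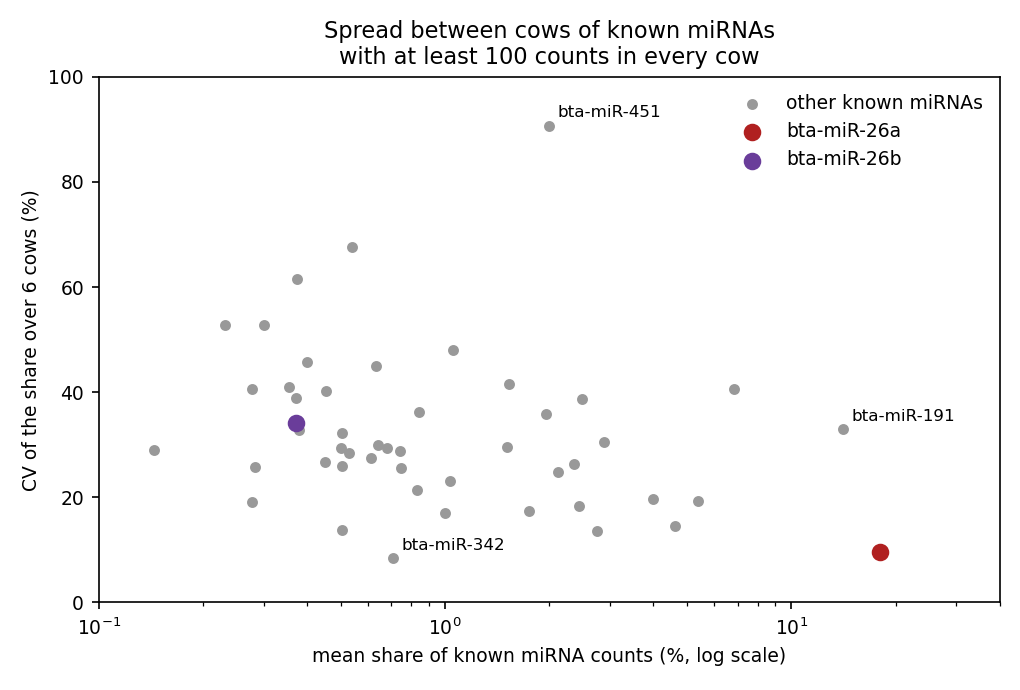
CV of the share over 6 cows (%, vertical axis) against the mean share of known miRNA counts (%, log scale, horizontal axis) for 49 known miRNAs, 1 point each. bta-miR-26a lies at the far right at a CV of 9.55%, bta-miR-191 at 33.0% and bta-miR-26b at 34.1%.

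The ratio of the paralogs does not depend on the total. Within a cow there were 97.4, 41.3 and 36.6 counts of bta-miR-26a per count of bta-miR-26b in control cows 1 to 3, and 52.5, 63.5 and 36.9 in replacement cows 1 to 3. The geometric mean was 51.3, with an SD of 0.55 on the log2 scale (n = 6 cows), and it was 54.8 without control cow 3. As both mature sequences have the same length, the ratio per nt is the same. Control cow 1 was the highest, control cow 3 and replacement cow 3 were the lowest, and the diets overlapped. In the terms of the pair, bta-miR-26b took 1.02% of the family counts in control cow 1, with a 95% Wilson interval from 0.856% to 1.21%, and 2.66% in control cow 3, with an interval from 2.36% to 3.00%. Of the 15 pairs of cows, 11 had intervals that did not overlap, and control cow 1 did not overlap any other cow. The ratio thus differed between cows by more than counting error, also between cows on the same diet. The highest ratio was 2.66-fold the lowest, and it was 1.74-fold the lowest without control cow 1, in which bta-miR-26b rested on 129 counts. The highest share of bta-miR-26b was 2.79-fold its lowest, against 1.35-fold for bta-miR-26a.

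**Figure D3:**
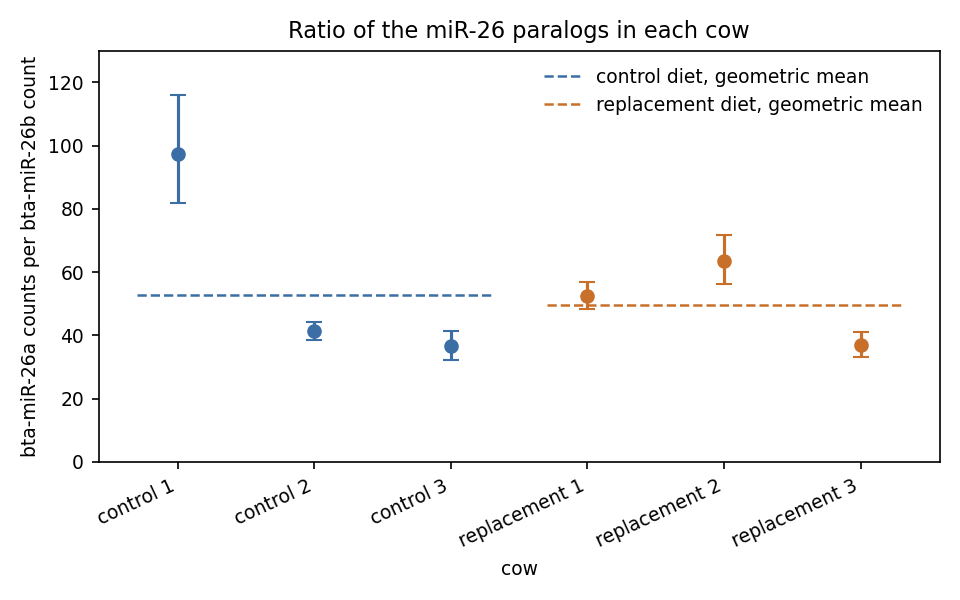
Counts of bta-miR-26a per count of bta-miR-26b in each cow, with bars from the 95% Wilson interval of the share of bta-miR-26b in the pair and dashed lines at the geometric mean of each diet. Control cow 1 stands at 97.4 and the other 5 cows between 36.6 and 63.5.

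The ratio was set beside those of other paralogs. Of 11 listed pairs, 8 had at least 10 counts of each miRNA in every cow. With these 8, the miR-26 pair had the highest geometric mean ratio, followed by bta-miR-27b over bta-miR-27a-3p with 25.5 and bta-let-7b over bta-let-7c with 8.79. Its fold range of 2.66 over the cows was in the middle, at place 6 of 9 from the smallest. The range was 1.49 for bta-miR-99a-5p over bta-miR-99b and 30.5 for bta-miR-23a over bta-miR-23b-3p. The other 3 pairs fell under the minimum count.

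**Figure D4:**
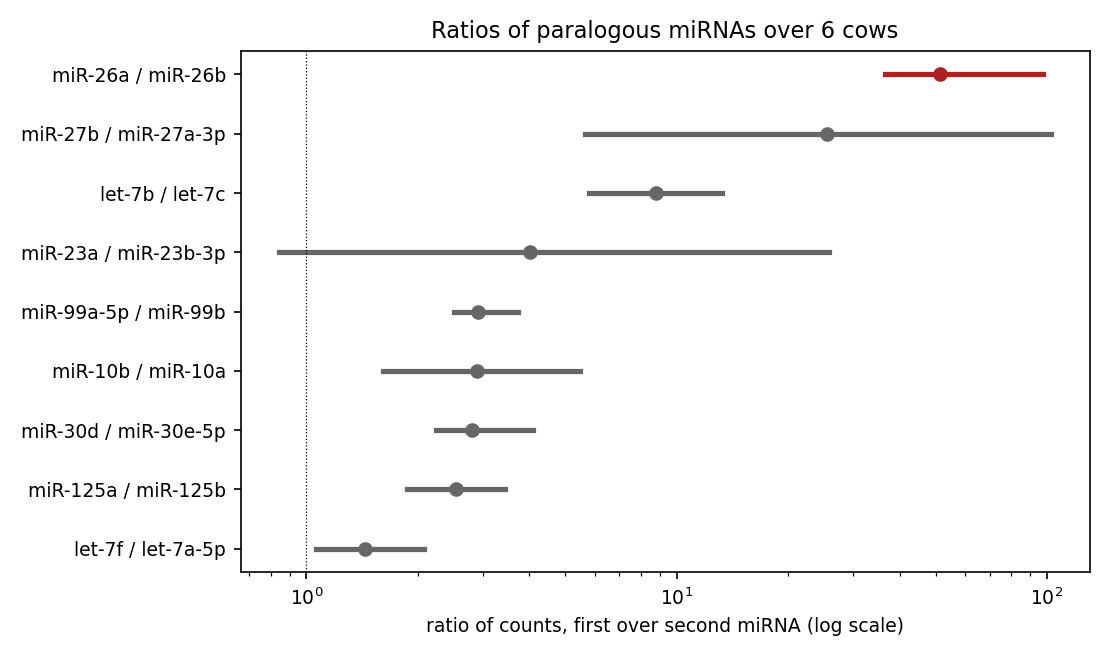
Ratio of counts of 9 pairs of paralogous miRNAs on a log scale, with the geometric mean over 6 cows as a point and the lowest to the highest cow as a line. The miR-26 pair, in red, has the highest mean of these 9 pairs at 51.3, and its line runs from 36.6 to 97.4.

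The miRNAs whose pattern over the 6 cows was most like that of each member were found by the fold range of their ratio to it, among the 48 other known miRNAs with at least 100 counts in every cow. For bta-miR-26a they were bta-miR-181a, a miRNA of lymphocytes, with a fold range of 1.27, bta-miR-27b with 1.32 and bta-miR-30e-5p with 1.37, where the median of all 48 was 2.25. bta-miR-26b was at place 29 of these 48. For bta-miR-26b the closest were bta-let-7i with a fold range of 1.55, bta-let-7f with 2.08 and bta-miR-484, whose hairpin matures without Drosha, with 2.21, where the median was 4.18. bta-miR-26a was at place 9 of these 48. Each member thus had several unrelated miRNAs that followed it over the cows more closely than its paralog did. These ranges have no test, and all points share the same 6 libraries.

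The diets were compared to ask whether the replacement of alfalfa hay changed the members in milk EVs. The diets overlapped in the share of each member, and no difference passed a test. The mean share of bta-miR-26a was 17.8% ± 2.62 (SD, n = 3) in control cows and 18.4% ± 0.581 (SD, n = 3) in replacement cows, which gave a difference of 0.618 percentage points (two-sided exact permutation test, p = 0.8, adjusted p = 0.9). For bta-miR-26b the values were 0.363% ± 0.161 (SD, n = 3) and 0.382% ± 0.118 (SD, n = 3), a difference of 0.0183 percentage points (two-sided exact permutation test, p = 0.9, adjusted p = 0.9). The family held 18.1% ± 2.66 (SD, n = 3) and 18.8% ± 0.689 (SD, n = 3) (two-sided exact permutation test, p = 0.7, adjusted p = 0.9). The ratio of the paralogs had a geometric mean of 52.8 on the control diet and 49.7 on the replacement diet, a difference of -0.09 on the log2 scale (two-sided exact permutation test, p = 0.9, adjusted p = 0.9), so a difference between the members in their response to diet was not detected either. The p-values were adjusted by Benjamini-Hochberg over these 4 differences, and 3 cows against 3 cannot give a p under 0.1. Without control cow 3 the difference in the share of bta-miR-26a was -0.702 percentage points, and without control cow 1 the difference in the log2 ratio was 0.36, so neither direction was stable. With predicted miRNAs in the total, the diets differed more, with 4.04% ± 1.77 (SD, n = 3) in control cows and 6.30% ± 1.48 (SD, n = 3) in replacement cows for bta-miR-26a, a difference of 2.26 percentage points or 1.56-fold (two-sided exact permutation test, p = 0.2). For bta-miR-26b these values were 0.0825% ± 0.0539 (SD, n = 3) and 0.126% ± 0.0256 (SD, n = 3), or 1.53-fold (two-sided exact permutation test, p = 0.3), and both members overlapped between the diets on this total as well. Known miRNAs as a whole took 21.5%, 29.0% and 15.8% of this total in control cows 1 to 3. In replacement cows 1 to 3 they took 42.0%, 35.2% and 25.7%. The larger difference on this total is therefore not particular to the members. With the red blood cell miRNAs outside the total, the mean of bta-miR-26a was 20.3% on the control diet and 20.2% on the replacement diet.

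In edgeR's quasi-likelihood test across 227 miRNAs, the log2 fold change of the replacement diet over the control diet was 0.07 for bta-miR-26a (standard error 0.38, adjusted p = 0.986) and 0.01 for bta-miR-26b (standard error 0.55, adjusted p = 0.986). These values lay close to the median of all 227 miRNAs, 0.03. With library size alone as the scaling, which moved that median to 0.63, they were 0.65 and 0.62. The median was -0.22 with DESeq2, taken over all miRNAs with a count, and -0.26 in edgeR without a filter on low counts. DESeq2 also differs in its scaling and model, and the cause of these shifts was not tested. Relative to those medians the members lay higher, by 0.40 and 0.36 with DESeq2 and by 0.34 and 0.27 without the filter. Without the filter their own log2 fold changes were 0.08 and 0.01, so the median moved there and the members hardly did. With DESeq2 their own values were 0.18 and 0.14. At an adjusted p under 0.05, edgeR called 0 of 227 miRNAs, which is 0% of those tested, and 8 (3.52%) had an unadjusted p under 0.05. limma called 0 and DESeq2 called 7 of 390, and neither member was among the calls of any tool. Of the 128 known miRNAs tested, 11 (8.59%) had shares that did not overlap between the diets. Neither member was one of them. The standard errors, 0.38 for bta-miR-26a and 0.55 for bta-miR-26b, leave room for a change of either member that 3 cows a diet could not show.

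**Figure D5:**
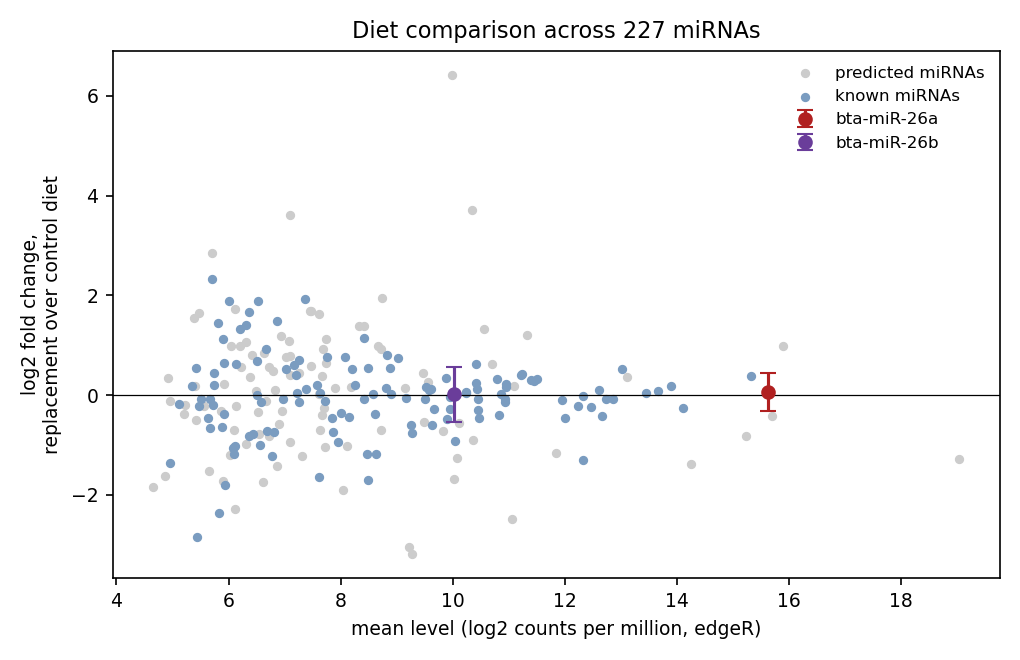
Log2 fold change of the replacement over the control diet (vertical axis) against mean level in log2 CPM (horizontal axis) for the 227 miRNAs tested, with the standard error drawn for the members. bta-miR-26a at 0.07 and bta-miR-26b at 0.01 lie on the zero line among the known miRNAs.

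Of 5 miRNAs listed as acting on EZH2 beside the family, 2 were matched by name, bta-miR-101 and bta-miR-214. Both were far below bta-miR-26a, and their sum was 0.00709% to 0.0873% of known miRNA counts per cow. Both had no count in at least 1 cow. Only bta-miR-214 passed the filter on low counts, with a log2 fold change of -0.20 between the diets (edgeR's quasi-likelihood test, standard error 1.70, adjusted p = 0.986) against a median of 0.03 over all miRNAs tested.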

How the data were processed

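Small RNA libraries of milk EVs from 3 control and 3 replacement cows were analysed. Groups and cow numbers came from the sample labels. According to the methods and the submitters' processing notes, the authors trimmed reads with Cutadapt 1.14 (15 to 41 nt kept), filtered them, aligned them to the cow genome (Bowtie, ARS-UCD1.2), filtered out other RNA classes by Rfam, and named miRNAs by miRBase or, for predicted ones, by miRDeep2. The authors deposited raw counts of reads per mature miRNA, and the same counts as RPM under the name TPM, scaled by 1 total per cow (12130660 to 13369168 reads) without a length term. The counter and its use of strand are not given in the sources used here. A table with the authors' own diet comparison (fold changes and p-values) was not used.

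Shares, ratios and 95% Wilson intervals were computed in Python 3.11.15 with scipy 1.17.1. Diets were compared by exact permutation tests over cows and, across all listed miRNAs, by edgeR 4.0.16 (quasi-likelihood test after TMM scaling and the default count filter, Benjamini-Hochberg adjustment) under R 4.3.3. The standard errors given with edgeR are not an output of its test. They were derived as the size of the log2 fold change over the square root of the F statistic. DESeq2 1.42.0 and limma 3.58.1 (voom) served as alternatives. The fits were tested on simulated data with large known changes and the same dispersion for every miRNA. That checks the fits and not their power for these cows. In the tests, the cow was the unit. With 1 library per cow, differences between cows cannot be told apart from those of EV isolation, RNA extraction and library preparation. Cows of one diet differed beyond sampling noise (chi-square per degree of freedom at least 49.98). Named miRNAs were the members, rows with their seed or near sequence, the 3 closest by ratio range, neighbours in mean share and the listed miRNAs. bta-miR-342, bta-miR-499, bta-miR-92b and the pair values named were chosen after their values were seen. The members and lists were chosen with earlier results of these data known. A further list of miRNAs is not reported here.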

Additional observations from a re-analysis of the deposited data

How the results depend on the processing

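The ratio of the paralogs moved by less than its SD under all 13 alternatives, with 45.1 to 54.8 when 1 cow at a time was left out. Most of these alternatives could not have moved it further. RPM and division by the equal length leave the ratio unchanged. A mean without 1 cow, the mean of either diet and a median lie within the SD by construction. The count of alternatives therefore does not show that the ratio is robust. Leaving out 1 cow gave shares of 17.6% to 18.7% for bta-miR-26a, 0.345% to 0.41% for bta-miR-26b and 17.98% to 19.0% for the family. With predicted miRNAs in the total, the shares were 5.17%, 0.104% and 5.27%. With the red blood cell list outside the total, chosen after seeing the data, bta-miR-26a held 20.3% and its diet difference was -0.0805 percentage points.

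The direction of each diet difference depended on single cows. Without 1 cow, the difference in share ran from -0.702 (control cow 3) to 1.91 percentage points for bta-miR-26a, from -0.0718 (control cow 1) to 0.0832 for bta-miR-26b, with -0.0466 without replacement cow 3, and from -0.659 (control cow 3) to 1.995 for the family. The log2 ratio ran from -0.35 to 0.36 (control cow 1), with 0.13 without replacement cow 3. In edgeR the log2 fold change ran from -0.19 to 0.44 for bta-miR-26a, negative without control cow 1, control cow 3 or replacement cow 1, and from -0.37 to 0.61 for bta-miR-26b, negative without those or replacement cow 3. The adjusted p of the members in edgeR, DESeq2 or limma was 0.623 to 0.999. edgeR called 0 miRNAs, DESeq2 7 (6 higher on the replacement diet), edgeR without a filter on low counts 15 (10 higher), without control cow 2 1 and without control cow 3 1. The other alternatives called 0. The cause was not tested.

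Correlations of deviations from diet means (-0.11, -0.16 and 0.18 for equal cow numbers) cannot settle pairing with 3 cows a diet. With the replicate block, edgeR gave log2 fold changes of 0.09 and 0.17 for bta-miR-26a and bta-miR-26b and 0 calls, and the exact sign-flip permutation test gave differences of 0.618, 0.0183 and 0.636 percentage points for the members and the family and -0.09 for the log2 ratio, with p from 0.75 to 1 (smallest possible 0.25). Depth limits bta-miR-26b most, with 129 counts in its lowest cow.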
